A study of Drosophila melanogaster with 4 samples.

Results

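The regions described here are the long chromosome stretches on which no cluster of the chromatin protein HP1b was listed in nuclei from adult fruit fly heads. A stretch is a gap of at least 40 kb between neighbouring clusters of HP1b enrichment on the chromosome arms 2L, 2R, 3L, 3R and X, in the list made for the replicate set. Of 7499 gaps between neighbouring clusters on these 5 arms, 591 were stretches (7.88%). The flies were Drosophila melanogaster of the wild-type strain Oregon-R at mixed adult stages, and no mutation or treatment distinguished the samples. HP1b was mapped by chromatin immunoprecipitation and sequencing with the antibody Q4114 in 2 ChIP samples, replicates 1 and 2. The series also held 2 inputs, for which only the like-numbered ChIP sample is named and no list of clusters was used here. Heads hold neurons, glia, eye and other cells together, so a gap is a property of the mixture and not of a named cell type.

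HP1b is a fly paralog of heterochromatin protein 1. Proteins of this family carry a chromodomain, which binds methylated histone tails, and a chromoshadow domain, through which they form dimers and hold partner proteins. In flies the paralog HP1a is best known from the heterochromatin around centromeres, HP1c from euchromatin, and HP1b from both. The long arms are mostly euchromatin and pass into heterochromatin near the centromere, whose side is the high end of the coordinates on 2L, 3L and X and the low end on 2R and 3R.

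Positions are on FlyBase release 5, and each cluster carries a score of unstated formula and scale, given by the authors. The lists held 7504 clusters on the 5 arms in the combined list, 6484 in replicate 1 and 6266 in replicate 2. They hold no read counts, so sequencing depth is unknown and the only measure of error is the spread of 2 replicates, which the labels do not tie to separate fly collections. A stretch is a region with no listed cluster, and HP1b below the authors' threshold cannot be told apart from its absence. The stretches were chosen by the positions of the clusters, which come from the same libraries as every other value here, so all comparisons below are descriptions without a test.

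The stretches were few among the gaps but long in sum. Together they spanned 42.2 Mb, which was 35.4% of the 119.03 Mb of the 5 arms and 42.8% of all sequence between clusters. Their median length was 58.5 kb, with quartiles at 47.7 and 80.9 kb, against a median of 4.74 kb for the 6908 shorter gaps. Lengths ran up to 300.2 kb, and most stretches lay near the lower limit. Those under 50 kb numbered 178 (30.1%), 89 were at least 100 kb (15.1%), 31 at least 150 kb and 6 at least 200 kb. The 89 stretches of at least 100 kb held 12.7 Mb, or 30.1% of all stretch sequence. The 3 shortest stretches were 40.01, 40.07 and 40.07 kb long, on 3R from 17716097, on 2R from 11137203 and on 2R from 10198560. The 3 gaps just short of the limit were 39.97 kb on 3R, 39.96 kb on 3L and 39.90 kb on 3R, so the limit cuts a continuous range of lengths.

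The longest stretches lay partly beside centromeres and partly deep within the arms. The longest ran from 24225697 to 24525944 of 3L (300.2 kb) and ended 17.6 kb from the centromere end of the assembled arm. Its length was 300.6 kb in replicate 1 and 300.3 kb in replicate 2, so the lists of both replicates left it free of clusters with nearly the same ends. The second, from 14707449 to 14971965 of 2L (264.5 kb), lay 8.04 Mb from the centromere end and measured 264.5 kb in replicate 1 and 264.6 kb in replicate 2. The third and the eighth, both on 3L, ran from 23759505 to 23999160 (239.7 kb) and from 23373921 to 23572905 (199.0 kb), within 1 Mb of the centromere end. These were not bounded alike in all lists: the third was part of free sequence of 304.3 kb in replicate 1 and 280.1 kb in replicate 2, and the eighth of 297.1 and 207.4 kb.

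The remaining stretches among the 10 longest were spread over 2L, 2R and X. On 2L they ran from 17140220 to 17378013 (237.8 kb) and from 4466190 to 4660088 (193.9 kb). The second of these measured 193.98 kb in replicate 1 and 193.90 kb in replicate 2. On 2R they ran from 2160986 to 2380805 (219.8 kb), the longest of that arm, and from 17659859 to 17859643 (199.8 kb). On X they ran from 21612553 to 21815835 (203.3 kb), the longest of X, and from 22059933 to 22252357 (192.4 kb), both within 1 Mb of the centromere end. The longest stretch of 3R ranked below these 10 and ran from 15885831 to 16077232 (191.4 kb). It lay 15.9 Mb from the centromere end, and the longest stretches of 2L and 3R were thus in the interior of their arms.

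In the combined list, the arms differed in how much of them was free of clusters, more through the number of stretches than through their length. Stretches made up 38.8% of 3R (157 stretches), 38.1% of 3L (127) and 37.8% of 2L (123), against 30.4% of 2R (87) and 30.6% of X (97). Per Mb there were 5.63 stretches on 3R, 5.35 on 2L and 5.17 on 3L, and 4.11 on 2R and 4.33 on X. Median lengths lay close together, from 56.6 kb on 2L to 60.3 kb on X. Stretches of at least 100 kb were 13.8% of the stretches of 2L, 14.4% on X, 14.6% on 3R, 14.9% on 2R and 17.3% on 3L. Their share differed more among the arms in replicate 1, with 13.8% on 2R, 15.7% on X, 18.8% on 3R, 20.4% on 3L and 20.6% on 2L. In replicate 2 it ran from 20.7% on X to 22.8% on 2L.

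**Figure D1:**
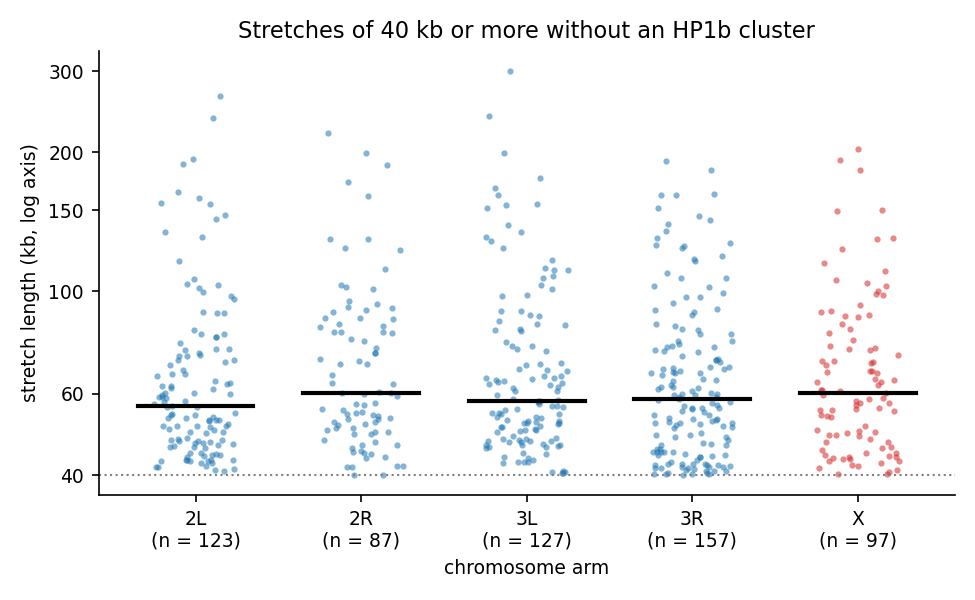
Length in kb (log axis) of each of the 591 stretches by chromosome arm, with 1 point per stretch, X in red, the autosomal arms in blue, and a bar at the median of the arm. The dotted line marks the minimum of 40 kb, and the medians lie between 56.6 and 60.3 kb on every arm.

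The order of the arms was similar when the rule was applied to the list of each replicate. Stretches of the replicate lists made up 46.7% ± 1.56 of 3R, 46.1% ± 2.12 of 2L and 45.9% ± 1.10 of 3L, against 41.0% ± 1.61 of X and 38.1% ± 1.27 of 2R (SD, n = 2 each). The differences among 3R, 2L and 3L were within the spread of the replicates. Those between these 3 arms and X or 2R were larger than that spread. X differed from the 4 autosomal arms less in the replicates than in the combined list: the ratio of X to autosomal share was 0.836 in the combined list, 0.918 in replicate 1 and 0.924 in replicate 2. Without the 2 Mb next to the centromere, 26.9% of X and 35.5% of the autosomal arms lay in stretches of the combined list.

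Stretches took up most of the sequence next to the centromere on X, 3L and 2L. In the 2 Mb nearest the centromere, 70.3% of 3L, 68.1% of X and 54.5% of 2L lay in stretches, against 35.3%, 26.9% and 36.2% of the rest of each arm. On 2R the share was 47.2% in these 2 Mb and 28.7% beyond them. On 3R the direction was opposite, with 21.7% in the 2 Mb next to the centromere and 40.1% beyond. The replicates gave the same directions on each arm, and on 3R the shares were 30.2% ± 1.39 and 48.0% ± 1.79 (SD, n = 2). Over the 5 arms, 52.4% of the centromere-proximal 2 Mb and 33.9% of the rest lay in stretches, a ratio of 1.55 in the combined list, 1.53 in replicate 1 and 1.37 in replicate 2. How repeated sequence was treated is not stated. Part of the sequence near the centromere may therefore have been unable to yield a cluster, which was not tested.

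Long stretches were more often near the centromere than short ones. The windows of 2 Mb make up 8.40% of the arms and held 60 stretches (10.2%). They held 11 of the 31 stretches of at least 150 kb (35.5%), against 12 of the 178 stretches under 50 kb (6.74%). The median length was 76.8 kb within these windows and 57.3 kb outside them. By arm the medians were 99.8 kb within and 57.0 kb outside on 3L, 84.4 and 59.3 kb on 2R, 76.0 and 57.6 kb on X, 68.2 and 58.3 kb on 3R, and 67.7 and 55.2 kb on 2L. In the replicate lists the median was also higher within the windows on each arm, except on 3R in replicate 1, with 51.4 kb within and 59.7 kb outside. At the other end of the arms, stretches made up 31.4% of the last 2 Mb, close to the 34.1% of the middle of the arms. Among the arms this distal share ran from 23.9% on 3L to 41.8% on 3R.

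In bins of 1 Mb counted from the centromere end, the share in stretches ranged from 9.01% to 81.2%, with a median of 33.8% over 117 bins. Every bin held at least part of a stretch. More than 50% of the bin was free in 24 bins, which were 7 each on 2L and 3R, 6 on 3L, 3 on X and 1 on 2R. The highest shares were in the 1 Mb next to the centromere end of 3L (81.2%, with 96.2% in replicate 1 and 85.3% in replicate 2) and of X (79.2%, with 82.8% and 83.7%). Away from the centromeres, bins picked after their values were seen had high shares on 3R, 2L and 3L. The 3R bin from 15000001 to 16000000 had 65.3% (67.8% in replicate 1 and 67.6% in replicate 2). The 2L bins from 17011545, 15011545 and 14011545 had 64.5%, 61.8% and 57.1%. With the bins from 16011545 (51.3%) and 18011545 (50.8%) they form an unbroken run from 14011545 to 19011544. The 3L bin from 13543558 had 61.0% (66.9% in replicate 1 and 66.4% in replicate 2), and that from 4543558 had 56.4%. The lowest shares in the combined list were 9.01% on X, in the bin from 5422828 to 6422827, and 9.21% on 2R, in the bin from 12000001 to 13000000. The X bin had higher shares in the replicates, 27.9% in replicate 1 and 21.8% in replicate 2. The 2R bin had 11.9% in replicate 1 and 14.6% in replicate 2. Across the 117 bins the shares of the replicates had a Spearman's rho of 0.944, given without a p because neighbouring bins are not independent.

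**Figure D2:**
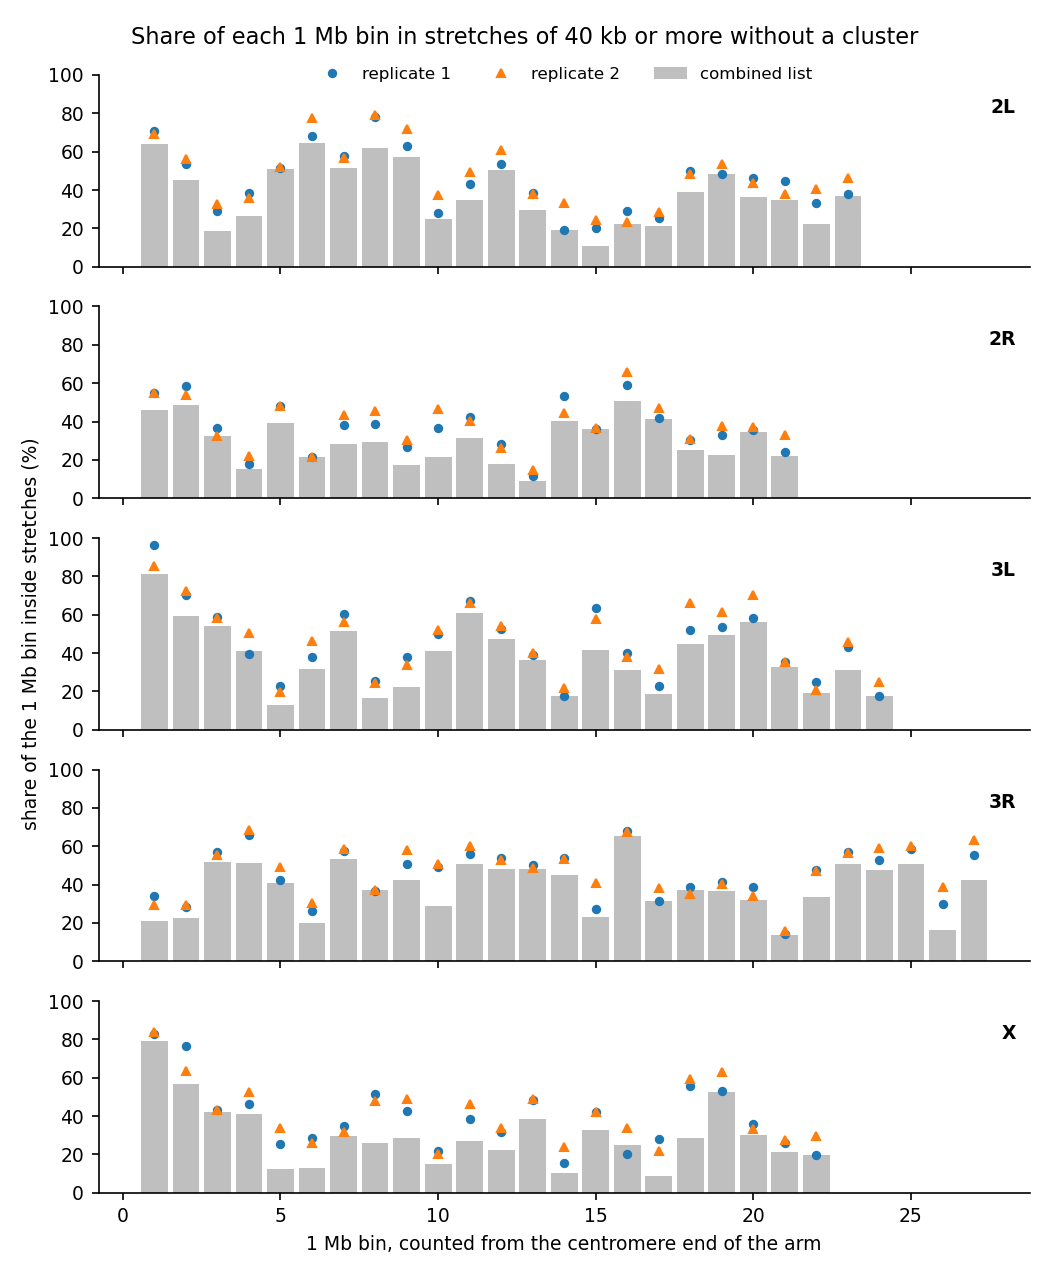
Share of each 1 Mb bin inside stretches (%) by its number from the centromere end, with 1 panel per arm, grey bars for the combined list, circles for replicate 1 and triangles for replicate 2. The first bin reaches 81.2% on 3L and 79.2% on X, and both replicates lie at or above the bar in 111 of 117 bins.

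Stretches filled more of most bins in the replicates than in the combined list. Both replicates were at or above the combined value in 111 of 117 bins, and in 74 bins each replicate differed from the combined list by more than the replicates differed from each other. The differences were largest in 3 bins. The X bin from 4422828 to 5422827 had 28.4% in stretches in the combined list, against 55.6% in replicate 1 and 59.6% in replicate 2. This bin held 69 clusters of the combined list, of which 28 were not found in both replicates. The X bin from 14422828 to 15422827 had 26.2% against 51.6% and 48.0%, with 19 of 68 clusters not found in both. The 3R bin from 9000001 to 10000000 had 29.1% against 49.4% and 51.0%, with 12 of 52 such clusters. Over the 5 arms, 75.9% of the 7504 clusters were found in both replicates. The share found in both was lower than this in the X bin from 4422828 (41 of 69). It was close to this in the X bin from 14422828 (49 of 68) and in the 3R bin (40 of 52). Whether clusters not found in both account for the differences was not tested.

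The replicate lists held almost nothing inside the stretches. Replicate 1 had 12 clusters that lay wholly within a stretch and replicate 2 had 3, in 14 of the 591 stretches in all. Clusters of replicate 1 covered 0.0787% of stretch sequence, against 23.0% of the rest of the arms, and those of replicate 2 covered 0.0228%, against 22.1%. This agreement is part of the choice of regions, since the combined list and the replicate lists come from the same ChIP samples. A larger number of stretches was touched only at the rim: 342 stretches held part of a replicate cluster that reached in from the border and no cluster wholly inside. The other 235 stretches held no base of any replicate cluster.

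The clusters inside stretches were narrow and of low score. Their widths were 1338 to 1804 bp in replicate 1 and 1405 to 1656 bp in replicate 2. Scores were 0.135 to 0.571 in replicate 1, at most percentile 22.1 of that list on the arms, and 0.143 to 0.366 in replicate 2, at most percentile 8.63. A single stretch, on 3R from 17212218 to 17306747 (94.5 kb), held a cluster of both replicates at the same place. That cluster spanned 17233340 to 17234818 with a score of 0.365 in replicate 1, and 17233541 to 17235014 with a score of 0.183 in replicate 2. It left 72.0 kb free in replicate 1 and 71.7 kb in replicate 2. This stretch had the most sequence under replicate clusters, followed by 2L from 21829451 to 22018091 (188.6 kb), where replicate 1 covered 1816 bp, and 2R from 15999742 to 16093496 (93.8 kb), where replicate 2 covered 1656 bp.

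Several of the longest stretches were interrupted in replicate 1 and not in replicate 2. Lengths here are those of the replicate's whole free sequence with the largest overlap, which can pass the ends of the stretch. For the 2L stretch from 17140220 (237.8 kb) it was 127.9 kb in replicate 1, from 17131888 to 17259830, and 271.4 kb in replicate 2. For the 2R stretch from 17659859 (199.8 kb) it was 99.4 kb in replicate 1 and 200.3 kb in replicate 2. For the longest stretch of 3R (191.4 kb) it was 144.5 kb in replicate 1 and 191.4 kb in replicate 2. The clusters that interrupted these 3 stretches in replicate 1 had scores of 0.135, 0.354 and 0.202, all at or below percentile 5.75 of the list.

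Nearly every stretch overlapped long free sequence in both replicates. This too is largely part of the choice of regions, since the combined list comes from the same ChIP samples and holds more clusters than either replicate list. The free sequence with the largest overlap, at its whole length, was at least 40 kb in both replicates for 589 of the 591 stretches. It was so in 1 replicate for the other 2. These 2 were on 3L from 2653153 (58.0 kb, with 30.2 kb in replicate 2) and on X from 7099541 (48.9 kb, with 36.1 kb in replicate 1). Many stretches were longer in the replicates: 181 by more than 5 kb in replicate 1 and 248 in replicate 2, while 10 and 2 were shorter by more than 5 kb. Both ends lay within 1 kb of those in the combined list for 364 stretches in replicate 1 (61.6%) and 319 in replicate 2 (53.98%). The median shift of an end was 51 bp in replicate 1 and 64 bp in replicate 2; an end within 1 kb was seen at 77.9% of the 1182 sides in replicate 1 and 71.5% in replicate 2.

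**Figure D3:**
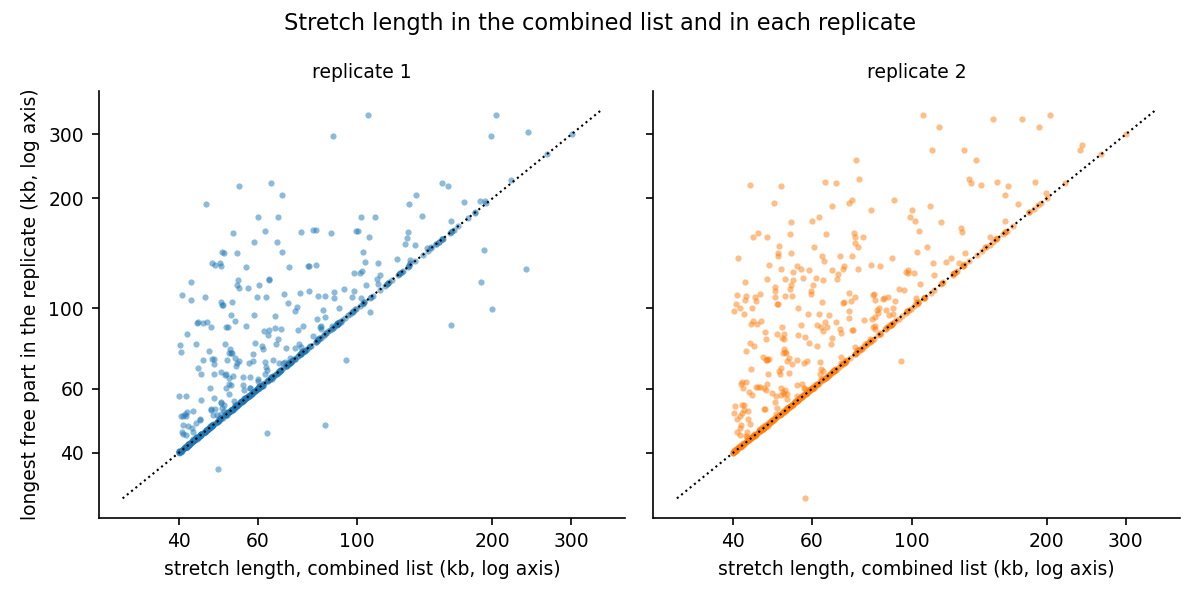
Length of each of the 591 stretches in the combined list (kb, x axis) and the whole length of the cluster-free sequence with the largest overlap in replicate 1 (left) and replicate 2 (right), both on log axes, with a dotted line where the lengths are equal. Most points lie on or above the line, with 10 shorter by more than 5 kb in replicate 1 and 2 in replicate 2.

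Applied to the replicate lists themselves, the rule gave more stretches and longer ones. Replicate 1 had 679 stretches over 50.9 Mb and replicate 2 had 673 over 53.5 Mb, against 591 over 42.2 Mb in the combined list. Of these, 569 in replicate 1 (83.8%) and 546 in replicate 2 (81.1%) touched a stretch of the combined list. The remaining 110 and 127 had medians of 47.3 and 49.8 kb. The stretches of the replicates shared 47.8 Mb, which was 93.9% of those in replicate 1 and 89.4% of those in replicate 2. The shared part was the smallest on X relative to the sequence in either replicate, with a Jaccard index of 0.807, against 0.886 on 3R, the highest of the arms.

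The clusters at the borders of stretches were weaker and narrower than the other clusters of the arms. The 591 stretches were bounded by 1083 different clusters, and 6421 clusters of the 5 arms bounded none. The median score was 0.597 at borders (quartiles 0.331 and 1.28) and 0.851 for the other clusters (quartiles 0.406 and 1.61). Median widths were 2097 bp at borders and 2323 bp for the others. The distributions overlapped over most of their range. Broad clusters, of at least 5 kb, were 3.32% of border clusters and 7.44% of the others.

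**Figure D4:**
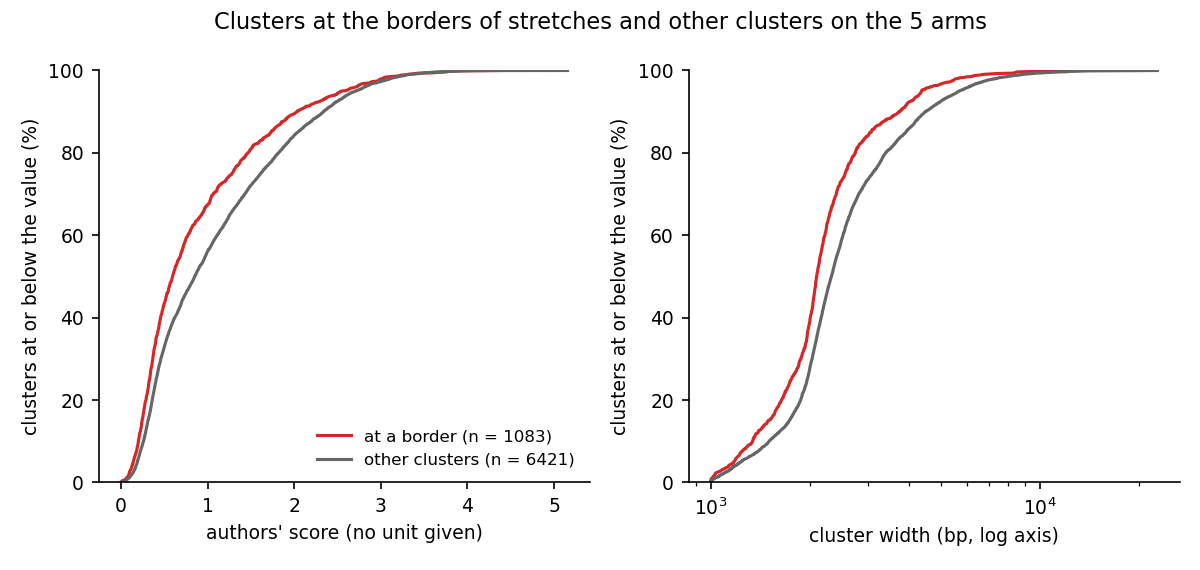
Cumulative share of clusters (%) by the authors' score (left, no unit given) and by width in bp (right, log axis), for the 1083 clusters at the borders of stretches (red) and the 6421 other clusters of the 5 arms (grey). The border curve lies to the left in both panels, with medians of 0.597 and 0.851 for the score and 2097 and 2323 bp for the width.

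The lower score of border clusters was found on each arm and in each list. The difference in median score, border minus other, was -0.34 on 2L and on X, -0.27 on 3R, -0.22 on 2R and -0.17 on 3L. It was -0.241 in replicate 1 and -0.240 in replicate 2 for the stretches and clusters of those lists. Border clusters were also less often shared by the replicates: 67.5% of them overlapped a cluster of both replicates and 14.1% of neither, against 77.3% and 9.83% of the other clusters. Among clusters found in both replicates, the median score was 0.953 at borders and 1.15 for the others, so the difference was also present within this class. Among clusters found in 1 replicate the values were close, 0.261 at borders and 0.288 for the others. They were also close among clusters found in neither, 0.323 at borders and 0.351 for the others.

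Some strong clusters also stood at borders. Clusters above percentile 90 of the score were 7.29% of border clusters and 10.5% of the others. The highest was the 3L cluster from 12564413 to 12566886 (score 4.39), which ranked 2 on the arms and bounded a stretch of 53.5 kb from 12566887 to 12620390. The next, on 2L from 8996320 to 8998723 (score 3.93), bounded a stretch of 89.97 kb. The length of a stretch was almost unrelated to the score of its weaker border, with a Spearman's rho of 0.0390 over 591 stretches, and to that of its stronger border, with -0.0180. The scores at the left and right border of a stretch were also nearly unrelated (rho 0.0880). These correlations are across stretches of a single list, many of which share a border cluster, and carry no p.

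The ends of a stretch rest on the clusters that bound it, and many of these were not in both replicates. Both border clusters were found in both replicates for 276 stretches (46.7%), 1 of them for 234, and neither for 81. Among the 89 stretches of at least 100 kb the share with both borders found in both replicates was 47.2%. Of the border clusters above percentile 90 of the score, 2 were found in neither replicate. Each was 1001 bp wide, on 3R from 26506048 (score 3.03) and on X from 21611552 (score 2.49). Of the other clusters, 2 of 6421 were above percentile 90 and in neither replicate.

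Stretches occurred next to one another. Of the 586 intervals between neighbouring stretches of an arm, 99 held a lone cluster (16.9%), and 196 held 3 clusters or fewer (33.4%). The median interval was 76.9 kb with 7 clusters. Beyond a border cluster, the next gap outward was itself a stretch in 198 of 1180 cases (16.8%), whereas 7.88% of all gaps were stretches. Its median was 10.05 kb, against 5.53 kb for all gaps. In all, 186 stretches (31.5%) belonged to 87 chains linked by lone clusters, of which 76 were pairs, 10 were triplets and 1 had 4 stretches.

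The longest chains made long regions with few clusters. The chain of 4 lay on 2L from 15764480 to 16223151, spanned 458.7 kb and was 98.3% free of clusters. The longest triplets spanned 351.8 kb on 3L, from 22282823 to 22634623, and 332.8 kb on 2L, from 17785931 to 18118725. The longest pair lay at the centromere end of 3L, from 24069560 to 24525944, with 154.1 and 300.2 kb on either side of a cluster of 2008 bp (score 0.381) that was found in both replicates. The next pair, on 3L from 13507553 to 13837559, lay 10.7 Mb from the centromere end and had 151.9 and 176.3 kb on either side of a cluster of 1800 bp (score 0.294) found in 1 replicate. The pair on X from 21943234 to 22252357 had 115.0 and 192.4 kb around a cluster with a score of 0.487, found in 1 replicate, and the pair on 3L from 23373921 to 23663090 had 199.0 and 88.2 kb around a cluster with a score of 0.396, found in 1 replicate.

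The pair on X from 21505737 to 21815835 differed from these. Its stretches of 105.8 and 203.3 kb were parted by the cluster of 1001 bp at 21611552 (score 2.49, percentile 92.7 on the arms) that was in neither replicate. The free sequence of each replicate also passed over the right border cluster of the pair, at 21815836. It ran from 21504390 to 21844038 in replicate 1 (339.6 kb) and from 21505948 to 21844016 in replicate 2 (338.1 kb). Each was the longest gap between clusters on the arms in its replicate list.

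Lone clusters had lower scores than other border clusters. The 99 clusters with a stretch on each side had medians of 0.417 for the score and 1977 bp for the width, against 0.621 and 2115 bp for the 984 clusters with a stretch on only 1 side. None of the 99 was 5 kb or wider, and 55 (55.6%) were found in both replicates.

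The surroundings of stretches carried less cluster sequence than the rest of the arms outside stretches. In the 50 kb beyond each border cluster, 16.2% of the sequence lay under clusters, against 26.5% of all sequence outside stretches, a ratio of 0.611. Part of the difference lies in the neighbouring stretches themselves, which filled 28.9% of these flanks. In the part of the flanks outside other stretches, 22.8% lay under clusters, still without the border cluster itself. The ratio was 0.581 in each replicate.

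Coverage beyond border clusters was below that beyond other clusters out to 100 kb. In steps of 5 kb outward from the border cluster, coverage was 13.7% to 17.9% up to 50 kb and 16.7% to 18.0% from 50 to 100 kb. Clusters covered 17.1% of the whole arms, so the steps from 50 to 100 kb were near the arm average. Beyond clusters that bound no stretch, coverage was 23.1% in the first step, 20.8% to 26.8% up to 50 kb and 18.4% to 20.0% from 50 to 100 kb. The rule affects this contrast, since a cluster that bounds no stretch has its next cluster within 40 kb on both sides. Taking only the 982 border sides whose next cluster also lay within 40 kb, mean coverage over the steps up to 50 kb was 19.3%, against 23.3% beyond the clusters that bound no stretch. The corresponding means were 18.6% against 21.5% in replicate 1 and 18.6% against 21.1% in replicate 2.

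**Figure D5:**
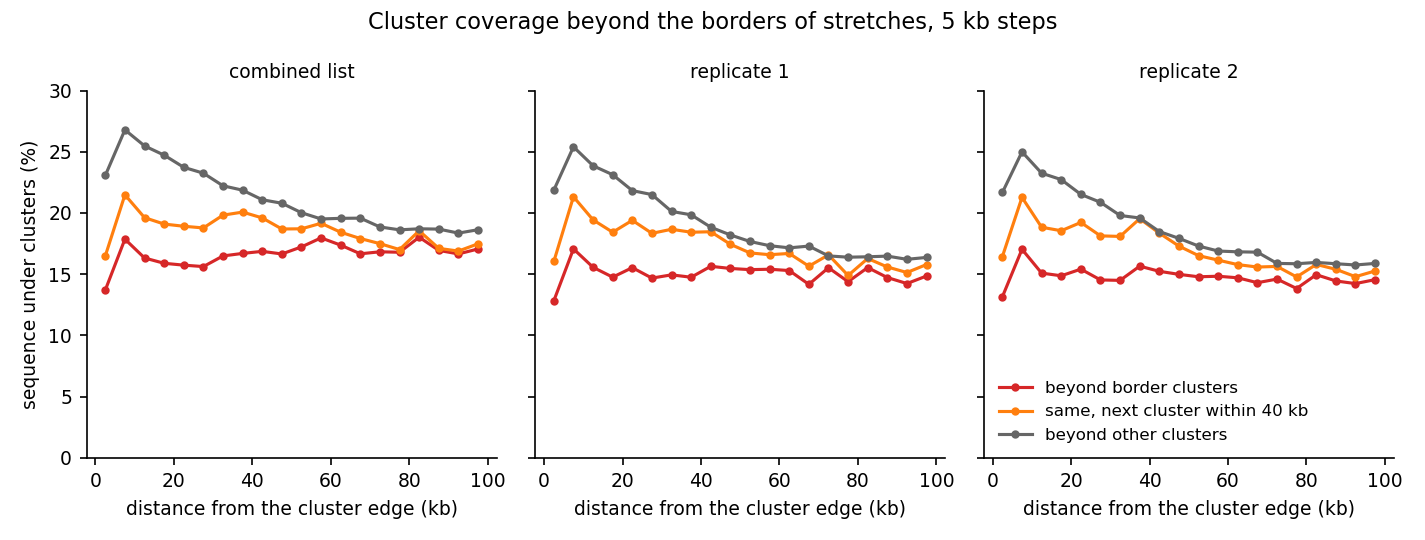
Sequence under clusters (%) in 5 kb steps outward from the edge of border clusters (red), of border clusters whose next cluster lies within 40 kb (orange), and of clusters that bound no stretch (grey), in the combined list and each replicate. The red curve stays between 13.7% and 18.0% in the combined list, below the grey curve at every step.

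Coverage beside the stretches was similar for most lengths. The share of the 50 kb flanks under clusters was 17.5% for stretches under 50 kb, 15.6% for 50 to 75 kb, 15.8% for 75 to 100 kb, 17.0% for 100 to 150 kb and 13.2% for the 31 stretches of at least 150 kb. Median border scores in the same classes were 0.610, 0.547, 0.534, 0.616 and 0.708, with no order by length.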

How the data were processed

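HP1b ChIP-seq was made from head nuclei of adult flies. Per the labels' protocols, chromatin was fixed with formaldehyde, sonicated and immunoprecipitated. The submitters' processing notes name Bowtie 0.12.7 as the aligner, and the file headers name FlyBase release 5. How clusters were called, how repeated sequence was treated and how inputs were used is not stated in these sources, so a stretch may hold sequence that could yield no cluster. The authors deposited a list of clusters with a score for each ChIP sample and for the replicate set. The deposited score has no stated formula and only ranks clusters within a list. Depth is unknown.

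From these lists, gaps between neighbouring enriched clusters were computed as the next start minus the previous end minus 1, on 1-based positions, with Python 3.11.15, numpy 2.4.6, pandas 2.3.3, scipy 1.17.1 and matplotlib 3.10.9. Arm lengths came from the file headers. Replicate free parts may reach an arm end. Overlap was counted at 1 bp. The gap finder was tested on simulated lists. The stretches named are the 10 longest, the longest of each arm, the 3 with the most sequence under replicate clusters, those nearest the limit and the 5 longest pairs around a lone cluster; other regions were picked after their values were seen. The members and lists were chosen with earlier results of these data known. The alternatives were each replicate list, fewer low-scoring clusters, other length minimums, windows and flanks. Genes were not assigned, since the available gene table follows release 6.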

Additional observations from a re-analysis of the deposited data

Results flagged for a closer look

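The combined list holds 12 regions typed as depleted of HP1b signal, which end no stretch and enter no comparison above. They were looked at again because 5 of them lay inside stretches. That share, 41.7%, is close to the 42.8% of all sequence between clusters that stretches make up. The 5 lay on 2L from 17259939 to 17261595 and from 21898664 to 21900298, on 2R from 16017101 to 16018919, and on 3R from 12322302 to 12324167 and from 17233329 to 17235176. Of these 5, 4 overlapped a cluster that a replicate listed as enriched, and the 3R region from 17233329 overlapped 1 in each replicate. These were 3 of the 12 replicate 1 clusters and 2 of the 3 replicate 2 clusters that lay wholly inside stretches. Such overlap was not particular to stretches. Outside them, every depletion region except that on 2R from 15580020 also overlapped a replicate cluster. The 2L region from 11828498 overlapped 1 in each replicate.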

How the results depend on the processing

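Leaving out replicate 1 or replicate 2 in turn, by reading the other list alone, gave 673 to 679 stretches over 42.7% to 44.9% of the arms. The X to autosome ratios were 0.918 to 0.924 and the centromere-proximal ratios 1.37 to 1.53. Border differences were -0.241 to -0.240 in score and -205 to -168 bp in width, and flank ratios 0.581 to 0.581. Of the 591 stretches of the combined list, 56.5% held no base of a replicate 1 cluster and 79.2% no base of a replicate 2 cluster. Without the 10% of clusters with the lowest scores, the share of the arms was 40.4%, the X ratio 0.754, the centromere-proximal ratio 1.39, the score difference -0.248 and the flank ratio 0.591; 426 of the 591 stretches kept their ends. With minimums of 30 and 50 kb, the share was 43.7% and 28.8%, the X ratio 0.819 and 0.810, the centromere-proximal ratio 1.38 and 1.73, the score difference -0.270 and -0.262, and the flank ratio 0.547 and 0.651. With only the clusters found in both replicates, an alternative chosen after seeing the data, the share was 47.7%, the X ratio 0.950, the centromere-proximal ratio 1.40, the score difference -0.220, the flank ratio 0.566 and the stretches without any replicate cluster 22.6%. A window of 1 Mb gave a centromere-proximal ratio of 1.69 and flanks of 100 kb a ratio of 0.630. Counting replicate clusters by their midpoint, 97.6% of stretches held none. The count of stretches was 413 to 876 over the minimums and 593 with depletion regions as ends. No alternative reversed a direction. Longer minimums can only lower the share. Leaving out clusters can only raise it, except where the first or last cluster of an arm is left out. For other moves the cause was not tested. No paired analysis was possible because only the ChIP samples have cluster lists among the files used. Unknown depth limits any statement on weak clusters, and these set the ends of many stretches.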

Other observations

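The free ends of the arms, which are not gaps between clusters, were short in most cases. The sequence before the first cluster was 51.0 kb on 3L, 17.6 kb on 2L, 11.9 kb on 2R, 0.0700 kb on X and absent on 3R. After the last cluster it was 4.73 to 11.05 kb on the 5 arms. In replicate 2 the first cluster of 3L began farther in, so the 3L stretch from 55534 to 109944 of the combined list was there part of the free end.

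Gaps of at least 40 kb were rarer on chromosome 4 and more frequent on sequence outside the arms. Chromosome 4 had 2 among 116 gaps, over 9.41% of its length. The 6 heterochromatin sequences had 34 among 97 gaps, over 62.9% of their length, with a longest gap of 654.1 kb. Unplaced sequence U had 51 among 82, over 84.3%. The extent of unassembled bases in these sequences was not determined here.

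The opposite of the stretches were long intervals without any. The longest lay on X from 1712343 to 2685406, where 973.1 kb held 111 clusters over 31.3% of the sequence and no gap of 40 kb. The next lay on X from 5150151 to 6005159 (855.0 kb, 85 clusters) and on 2L from 7782036 to 8634897 (852.9 kb, 79 clusters).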
